A study of Mus musculus with 12 samples.

Results

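The creatine kinase and myoglobin energy buffer of the heart was described here through 8 genes, chosen by name from the 21669 transcript names of each count table: *Ckm*, *Ckmt2*, *Ckb*, *Gatm*, *Gamt*, *Slc6a8*, *Ak1* and *Mb*. All 8 were found, each as 1 transcript. The samples were left ventricles of adult mouse hearts, either wild-type (WT) or Rpl3l-/- (knockout, KO), in which the gene for the striated-muscle form of ribosomal protein L3 is knocked out. RNA sequencing of polyadenylated RNA measured mRNA, and ribosome profiling (Ribo-seq) measured ribosome-protected fragments (RPF, footprints), the mRNA pieces that ribosomes shield from RNase I. There were 3 libraries of each genotype in each assay, 12 in all, described by the series as biological triplicates. All tissue was homogenised with cycloheximide, which halts elongating ribosomes. Strain, sex, exact age and the way the allele was made are not given in the sources used here.

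Creatine kinases move a phosphate group between ATP and creatine, so that phosphocreatine can restore ATP where it is spent. In a cardiac myocyte the mitochondrial isoform charges creatine near the site of ATP export, and the cytosolic isoforms discharge phosphocreatine at the myofibrils and membrane pumps. Creatine itself is made mostly in kidney and liver and is carried into the heart from blood. Adenylate kinase regenerates ATP from ADP, and myoglobin holds and carries oxygen inside the myocyte.

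Total counts lay between 6635242 and 8459004 per RNA library and between 3827862 and 7474602 per RPF library. Mitochondrially encoded transcripts took 49.8% to 58.2% of RNA counts and 2.28% to 5.22% of RPF counts. *Rpl3l*, the targeted gene, had 2726 to 3329 RNA counts in WT and 276 to 442 in KO, and 937 to 1108 RPF counts in WT and 30 to 65 in KO, in the direction of the labels. Some libraries stood apart from others of their own genotype. On the first principal component of RNA (46.2% of variance), WT 3, KO 1 and KO 3 scored 19.5 to 25.4 and the other 3 libraries -26.2 to -19.5. That split was thus uneven between the genotypes. On that of RPF (38.2%), WT 1 scored -64.1 and the others 8.77 to 15.3. All 10 cardiomyocyte markers had counts in every group, with sums of 46476 to 63885 CPM in RNA (CPM, counts-per-million, are counts scaled for library size). The 8 markers of skeletal muscle, which also makes *Ckm* and *Mb*, summed to 7.24 to 14.98 CPM in RNA and 8.06 to 15.8 CPM in RPF, with *Myh2* at 0 in RNA WT and *Myh4* at 0 in RNA KO.

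The kinase isoforms are paralogs, so the counts rest on how well short reads tell them apart. The coding sequences of *Ckm* and *Ckb* had the same length, 1143 bases, and were identical at 75.9% of positions. At a footprint length of 28 bases, 0 of the 1116 coding windows of *Ckm* occurred unchanged in *Ckb*, and 55 (4.93%) came within 2 mismatches of a *Ckb* window. The closest pair that lay within an exon in both genes is shown first, and the closest pair of *Ckm* and *Ckmt2* second, 5′ to 3′ in the sense of the mRNA, with the mismatched bases in capitals.
Ckm, chr7:19416787-19416814, plus strand, exon 5: cagcagcagctcattgaTgaccacttcc
Ckb, chr12:111670949-111670976, minus strand, exon 5: cagcagcagctcattgaCgaccacttcc
Ckm, chr7:19419494-19419521, plus strand, exon 6: gtgatctcCatggaGaagggaggcaata
Ckmt2, chr13:91859236-91859263, minus strand, exon 7: gtgatctcAatggaAaagggaggcaata
The first pair differed at 1 base and the second at 2. Only 5 of the 1116 *Ckm* windows came within 2 mismatches of *Ckmt2*, and 0 of the 1116 *Ckb* windows did. Against all other genes of GENCODE M21 (GRCm38), *Ckb* was the ambiguous member. Of its 1445 transcript windows, 571 (39.5%) also occurred unchanged in other genes, most often in Gm12892, which was not analysed here. *Mb*, *Gatm* and *Gamt* shared 0 windows with other genes, and the remaining members between 0.292% and 0.852%. How reads that match several genes were counted is not given in the sources used here, so the level of *Ckb* is uncertain.

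In WT hearts, *Mb* and the muscle kinases were among the most abundant messages, and *Mb* had the highest mean footprint density of all nuclear genes. To compare genes with each other, counts were divided by length and scaled to the same sum in every library, as for TPM, over 21380 nuclear transcripts (values in ppm), by transcript length for RNA and by coding length for footprints. On that scale *Mb*, which encodes myoglobin (Mb-203, chromosome 15, 77015491 to 77022787, minus strand, 3 exons), stood at 29369 ± 2297 ppm in WT footprints (SD, n = 3), rank 1 of 21380. Its WT libraries ran from 27359 to 31872 ppm and overlapped those of the next genes, the sarcomere and calcium-handling genes *Myl2* (25422 to 30260 ppm), *Pln* (24094 to 29633 ppm) and *Actc1* (22872 to 28695 ppm). In KO footprints *Mb* again ranked 1, at 30719 ± 1186 ppm (SD, n = 3). In RNA it ranked 9 in each genotype, at 10849 ± 2709 ppm in WT and 11214 ± 2294 ppm in KO (SD, n = 3 each).

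The sarcomeric mitochondrial kinase *Ckmt2* (Ckmt2-201, chromosome 13, 91853387 to 91876885, minus strand, 10 exons) and the cytosolic muscle kinase *Ckm* (Ckm-203, chromosome 7, 19411025 to 19422841, plus strand, 8 exons) followed. In WT footprints *Ckmt2* stood at 3804 ± 88 ppm and *Ckm* at 3421 ± 616 ppm (SD, n = 3 each), ranks 31 and 36. Their WT footprint libraries overlapped, so their order there was within the spread. In WT RNA *Ckmt2* stood at 5809 ± 395 ppm and *Ckm* at 3028 ± 256 ppm (SD, n = 3 each), with no overlap. That RNA order depended on the length used: per coding length *Ckm* stood at 3836 ppm and *Ckmt2* at 3626 ppm, with overlapping libraries, because the *Ckm* transcript carries 1596 untranslated bases and that of *Ckmt2* 226.

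Below these came *Ak1*, the main cytosolic adenylate kinase of muscle (Ak1-203, chromosome 2, 32621758 to 32635058, plus strand, 7 exons), and *Ckb*, the brain-type cytosolic kinase (Ckb-201, chromosome 12, 111669361 to 111672338, minus strand, 8 exons). In WT RNA per transcript length they overlapped, at 105 ± 17 ppm for *Ak1* and 106.0 ± 7.9 ppm for *Ckb* (SD, n = 3 each). Per coding length *Ak1* stood at 199 ppm and *Ckb* at 72.1 ppm, a ratio of 2.75 with no overlap. In WT footprints *Ak1* stood at 1399 ± 82 ppm and *Ckb* at 175 ± 22 ppm (SD, n = 3 each), ranks 105 and 722, a ratio of 7.98 with no overlap. The genes of creatine supply were the lowest. *Gamt* (Gamt-202, chromosome 10, 80258151 to 80261012, minus strand, 6 exons) stood at 13.1 ± 4.6 ppm in WT footprints and the creatine transporter *Slc6a8* (Slc6a8-203, chromosome X, 73673785 to 73682502, plus strand, 13 exons) at 12.5 ± 0.7 ppm (SD, n = 3 each), with overlapping libraries. *Gatm* (Gatm-201, chromosome 2, 122594467 to 122611303, minus strand, 9 exons) stood at 32.4 ± 28 ppm in WT footprints and at 0.139 ± 0.14 ppm in WT RNA (SD, n = 3 each).

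**Figure D1:**
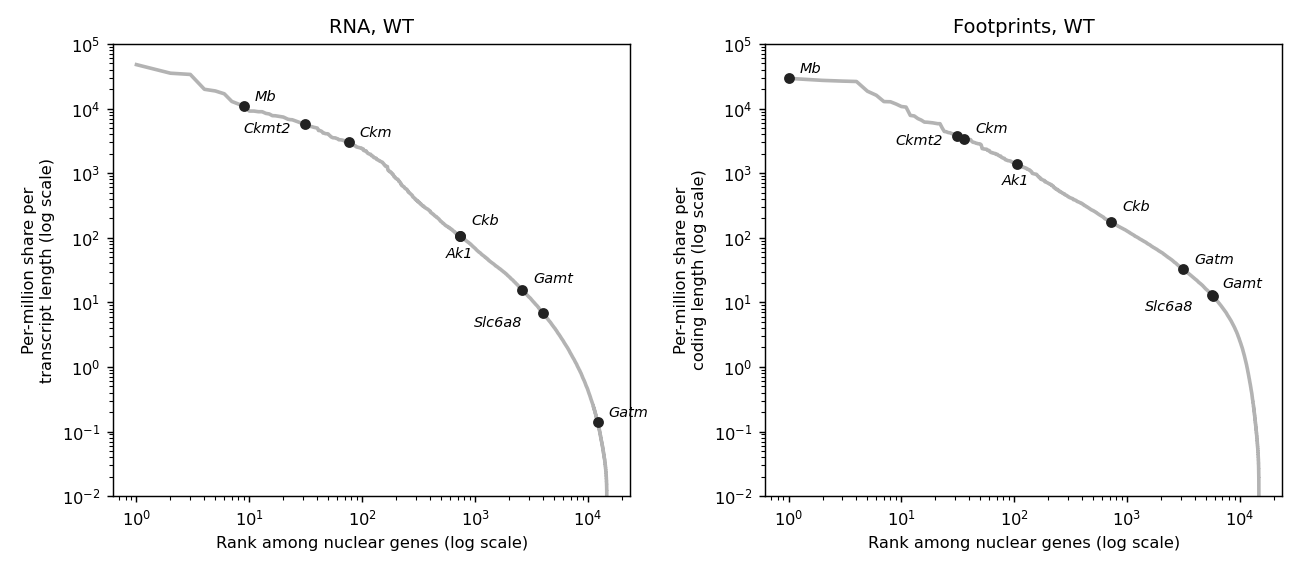
Mean WT level of every nuclear gene against its rank (both axes logarithmic), for RNA per transcript length (left) and footprints per coding length (right), with the 8 members as points. *Mb* sits at rank 9 in RNA and rank 1 in footprints, and *Ak1* moves from rank 742 to rank 105.

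The members differed widely in footprints per unit of mRNA. The ratio was formed from group means of CPM over nuclear genes, which uses no length, and compared with 8034 nuclear genes tested in both assays, whose median log2 ratio was 0.63 in WT. Among the 7 members with enough RNA for this ratio, that is without *Gatm*, *Ak1* had the highest, 4.65-fold in WT (log2 2.22, between 1.87 and 2.45 over all pairings of a WT footprint library with a WT RNA library), above 78.9% of genes. *Ckm* had the lowest, 0.586-fold (log2 -0.77, between -1.10 and -0.38), above 22.8% of genes. The ratio of *Ckmt2* was close by at 0.690-fold (log2 -0.54, between -0.68 and -0.42). *Mb* and *Ckb* lay near the middle of all genes, at log2 0.50 and 0.68, above 47.2% and 51.1% of genes. In KO *Ak1* was again the highest of the 7, at log2 2.06, and *Ckm* the lowest, at -0.85. *Mb* and *Ckb* changed places there, at 0.49 and 0.48. *Slc6a8* moved most between genotypes, from log2 0.39 in WT to -0.48 in KO, and its pairings ran from -0.08 to 0.92 in WT and from -1.10 to 0.82 in KO, so they overlapped. The pairings of *Ak1* and *Ckm* did not overlap in either genotype. The region of each transcript that was counted is not given in the sources used here, and *Ak1* and *Ckm* carry 1500 and 1596 untranslated bases, so a count limited to coding sequence would shift these ratios.

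**Figure D2:**
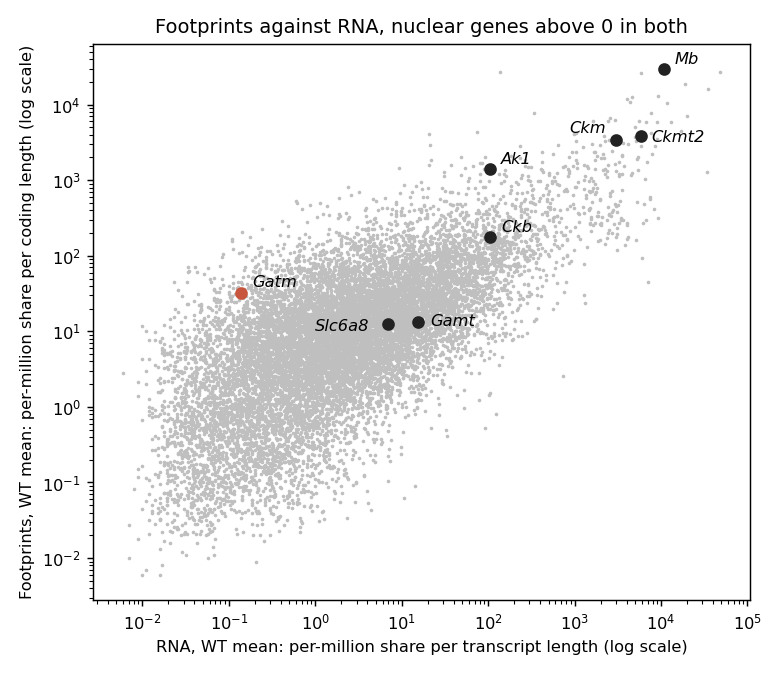
Mean WT footprint level per coding length (vertical) against mean WT RNA level per transcript length (horizontal), both in ppm on logarithmic axes, for nuclear genes above 0 in both. Grey points are single genes; *Ak1* lies above *Ckb* at 105 and 106 ppm of RNA per transcript length (199 and 72.1 ppm per coding length), and *Gatm* (red) has 32.4 ppm of footprints at 0.139 ppm of RNA.

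The question of the comparison between genotypes was whether loss of *Rpl3l* changed the mRNA, the footprints or the translational efficiency (TE, footprints relative to mRNA) of these genes. No member passed an adjusted p of 0.05 in edgeR's quasi-likelihood test in any of the 3 comparisons. In RNA 0 of the 7 members tested were called, against 0.0119% of 8379 genes. In RPF 0 of 8 were called, against 0.00897% of 11153 genes, and in TE 0 of 7, against 0.0% of 8044 genes. With p left unadjusted, 0 members lay below 0.05 in RNA, 1 in RPF (*Gatm*) and 0 in TE, against 2.54%, 5.96% and 3.73% of all genes tested. *Gatm* had too few RNA counts to enter the RNA and TE fits. The median log2 fold change of the members tested, KO against WT, was -0.04 in RNA, -0.06 in RPF and 0.04 in TE, and that of all genes tested -0.01, 0.00 and 0.01. In bulk tissue, fewer cells of a type and less RNA per cell cannot be told apart.

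*Mb* had the narrowest interval of the members in footprints. Its RPF levels, as CPM on library sizes scaled by TMM (trimmed mean of M-values), were 12988, 12463 and 14445 in the WT libraries 1 to 3 and 13683, 13041 and 13975 in KO libraries 1 to 3. All KO libraries lay inside the WT range. The log2 fold change was 0.03 with a 95% confidence interval of -0.16 to 0.22 (edgeR adjusted p = 0.973). *Mb* RNA was 4216, 4007 and 4979 CPM in WT and 4780, 3717 and 4326 CPM in KO, again overlapping, with a log2 fold change of -0.04 (interval -0.45 to 0.37, edgeR adjusted p = 0.999). As a share of nuclear counts *Mb* made up 0.967% ± 0.22 of RNA in WT libraries and 1.00% ± 0.19 in KO libraries (SD, n = 3 each, exact two-sided permutation p = 1.0). WT 3, KO 1 and KO 3, the libraries set apart on the first RNA component, were the highest, at 1.22%, 1.15% and 1.06%, and the other 3 lay between 0.787% and 0.873%. In footprints its share came to 1.37% ± 0.14 for WT and 1.40% ± 0.07 for KO (SD, n = 3 each, exact two-sided permutation p = 0.8). The footprint libraries of the same numbers, WT 3, KO 1 and KO 3, were again the highest, at 1.53%, 1.43% and 1.45%. The other 3 lay between 1.26% and 1.33%.

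*Ckm* footprints were 3262, 4635 and 3611 CPM in WT and 3574, 3670 and 3639 CPM in KO. The KO libraries lay close together inside the WT range, and WT 2 was the highest. The log2 fold change was -0.08 (interval -0.34 to 0.18) in RPF and -0.10 (interval -0.50 to 0.30) in RNA, with edgeR adjusted p = 0.950 and 0.999. *Ckm* RNA was 3681, 2802 and 2859 CPM in WT and 2863, 2877 and 2980 CPM in KO, with WT 1 above the other 5 libraries.

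*Ckmt2* was the member whose genotypes separated in CPM. Its RNA was 3457, 3439 and 2794 CPM in WT and 2592, 2750 and 2779 CPM in KO, so that every KO library lay below every WT library, WT 3 by a narrow margin. Its footprints were 4761, 4604 and 4693 CPM in WT and 4537, 4119 and 4387 CPM in KO, again without overlap. KO means were 83.8% and 92.8% of the WT means (exact two-sided permutation p = 0.1 in each, the smallest that 3 against 3 libraries allow). The difference did not pass the test across genes: the log2 fold change was -0.26 (SE 0.17, interval -0.64 to 0.13, edgeR adjusted p = 0.999) in RNA and -0.11 (SE 0.094, interval -0.31 to 0.093, edgeR adjusted p = 0.885) in RPF. Without overlap, then, were 1 of 7 members tested in RNA and 1 of 8 in RPF, against 7.33% and 12% of all genes tested in either direction. At those shares 1 such member among so few is not unusual. Genes with KO above WT made up 4.14% and 6.27%, and those with KO below WT 3.19% and 5.77%. KO lay below WT in both assays in 0.373% of 8044 genes. That share makes no allowance for *Ckmt2* and its direction being picked among the members after the values were seen. Of the cardiomyocyte markers, 9 of 10 had less RNA in KO (0 called), with -0.13 as the median log2 fold change. In RNA they summed to 63885, 54565 and 47312 CPM in WT 1 to 3 and 46476, 53531 and 47012 in KO 1 to 3. The lowest sums were thus those of WT 3, KO 1 and KO 3, the libraries set apart on the first RNA component. KO 2 lay just below WT 2. With a factor for that split, chosen after the data were seen, the RNA log2 fold change of *Ckmt2* was -0.19 (SE 0.14). In RPF 4 of the 10 cardiomyocyte markers were lower in KO (median 0.02). Of the endothelial and the fibroblast markers, 6 of 7 each were higher in KO RNA (medians 0.27 and 0.09, 0 called), with summed levels of 619 to 852 CPM and 281 to 343 CPM in WT and 718 to 981 CPM and 320 to 374 CPM in KO. The part of these markers in the *Ckmt2* result was not tested. The separation also depended on the scale. In length-scaled ppm of nuclear counts the ranges overlapped, at 5412 to 6202 in WT and 4729 to 5784 in KO for RNA, and 3715 to 3890 in WT and 3435 to 3731 in KO for footprints.

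The balance between kinase isoforms was read within each library, where no scaling between libraries is needed. *Ckb* made up 1.68%, 1.99% and 1.88% of the summed *Ckm* and *Ckb* RNA counts in WT libraries 1 to 3 and 1.95%, 2.18% and 1.91% in KO libraries 1 to 3. The genotypes overlapped (means 1.85% ± 0.15 and 2.02% ± 0.15, SD, n = 3 each, exact two-sided permutation p = 0.4). In footprints the share was 6.03%, 4.38% and 4.44% in WT and 4.84%, 4.31% and 5.51% in KO (means 4.95% ± 0.93 and 4.89% ± 0.60, SD, n = 3 each, exact two-sided permutation p = 0.8). Every footprint library thus lay above every RNA library, but the size of that gap depended on length. The *Ckm* transcript carries 1596 untranslated bases and that of *Ckb* 326, and per transcript length the RNA share was 3.39% ± 0.28 in WT libraries and 3.69% ± 0.27 in KO libraries (SD, n = 3 each). Those RNA libraries, from 3.09% to 3.99%, still lay below the footprint libraries, the lowest of which was at 4.31%. The part of the windows that *Ckb* shares with Gm12892 in this was not tested. Wilson 95% intervals of single libraries, such as 5.68% to 6.40% in RPF WT 1 and 4.10% to 4.69% in RPF WT 2, did not overlap, so replicates differed by more than counting error. Such intervals cover counting error only, since the counts do not show which reads came from the same molecule.

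*Ckmt2* made up 50.5% ± 3.6 of the summed *Ckm*, *Ckb* and *Ckmt2* RNA counts in WT hearts and 47.7% ± 0.7 in KO hearts (SD, n = 3 each, exact two-sided permutation p = 0.2). WT 2 was the highest at 54.6%, and the other WT libraries, at 48.0% and 49.0%, bracketed KO 2 at 48.3%. In footprints it held 54.0% ± 4.7 for WT and 53.2% ± 1.5 for KO (SD, n = 3 each, exact two-sided permutation p = 0.8), with all 3 KO libraries inside the WT range of 48.7% to 57.8%. *Ckb* itself stood at 63.1, 56.9 and 54.7 CPM in RNA WT and 57.0, 64.3 and 58.0 CPM in RNA KO. Its footprints stood at 209, 212 and 168 CPM in WT and 182, 165 and 212 CPM in KO. WT and KO interleaved in both assays. It had a log2 fold change of 0.04 (interval -0.31 to 0.39) in RNA and -0.08 (interval -0.39 to 0.24) in RPF, with edgeR adjusted p = 0.999 and 0.970.

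**Figure D3:**
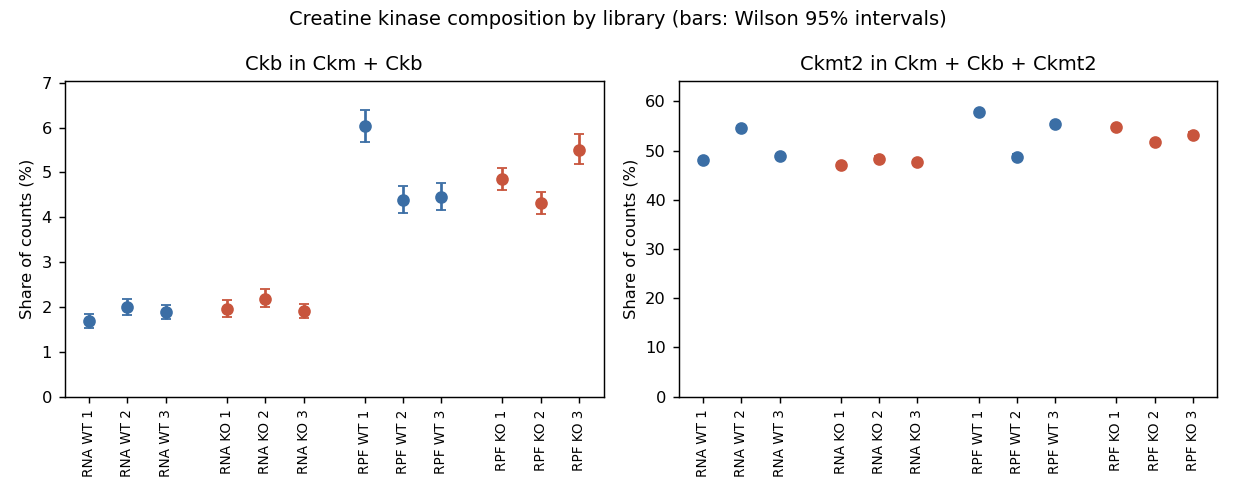
Share of *Ckb* in *Ckm* plus *Ckb* counts (left) and of *Ckmt2* in all 3 kinases (right), in percent, for each library (blue WT, red KO, bars are Wilson 95% intervals). *Ckb* takes 1.68% to 2.18% of RNA counts and 4.31% to 6.03% of footprint counts, with WT and KO interleaved.

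*Ak1*, the adenylate kinase, had overlapping footprint levels, at 740, 824 and 832 CPM in WT and 816, 743 and 826 CPM in KO, a log2 fold change of -0.01 (interval -0.25 to 0.24, edgeR adjusted p = 0.995). Its RNA was 84.6, 74.3 and 84.2 CPM in WT and 91.1, 70.5 and 91.6 CPM in KO, with a log2 fold change of 0.06 (interval -0.33 to 0.44, edgeR adjusted p = 0.999).

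*Slc6a8*, which carries creatine into the myocyte, had the largest RNA difference of the members, on few counts. The WT libraries held 64, 49 and 92 RNA counts (9.17, 6.36 and 9.64 CPM) and the KO libraries 112, 46 and 173 (16.5, 6.89 and 17.5 CPM). KO 1 and KO 3 were above all WT libraries, while KO 2 lay inside the WT range, and the 3 highest libraries of the 6 were KO 3, KO 1 and WT 3, the set that the first RNA component separated. Within that set KO 1 and KO 3 stood at 16.5 and 17.5 CPM against 9.64 CPM in WT 3, and within the other KO 2 stood at 6.89 CPM between WT 2 and WT 1. The log2 fold change was 0.71 (SE 0.33, interval -0.020 to 1.44, unadjusted p = 0.056, edgeR adjusted p = 0.999). With a factor for that split of the RNA libraries, chosen after the data were seen, it was 0.42 (SE 0.21, edgeR adjusted p = 0.829). Leaving out 1 library at a time gave 0.48 (without KO 3) to 1.01 (without KO 2). Footprints did not show the higher level in KO: the WT libraries held 22.0, 23.2 and 24.7 CPM and the KO libraries 24.7, 19.6 and 23.3 CPM. The log2 fold change was -0.05 (interval -0.50 to 0.40, edgeR adjusted p = 0.981). The 3 highest footprint libraries were again those numbered WT 3, KO 1 and KO 3, the last just above WT 2, and KO 2 was the lowest. The log2 fold change of its TE was -0.73 (SE 0.39, interval -1.56 to 0.094, edgeR adjusted p = 0.9997).

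*Gamt*, the enzyme that methylates guanidinoacetate to creatine, was near the lower limit of the test in both assays. RNA libraries held 23, 52 and 62 counts for WT and 31, 31 and 41 for KO (3.30, 6.75 and 6.50 CPM against 4.58, 4.64 and 4.15 CPM). RPF libraries held 27, 45 and 47 counts for WT and 84, 61 and 38 for KO (5.55, 11.9 and 9.94 CPM against 11.3, 8.94 and 7.96 CPM). WT 1 had the lowest level of its group in each assay. The log2 fold change was -0.32 (interval -0.97 to 0.32, edgeR adjusted p = 0.999) in RNA and 0.06 (interval -0.72 to 0.84, edgeR adjusted p = 0.985) in RPF. Without WT 1 the RNA value was -0.57 (interval -1.10 to -0.044, unadjusted p = 0.037, edgeR adjusted p = 0.99996), without WT 2 -0.17 and without WT 3 -0.19.

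**Figure D4:**
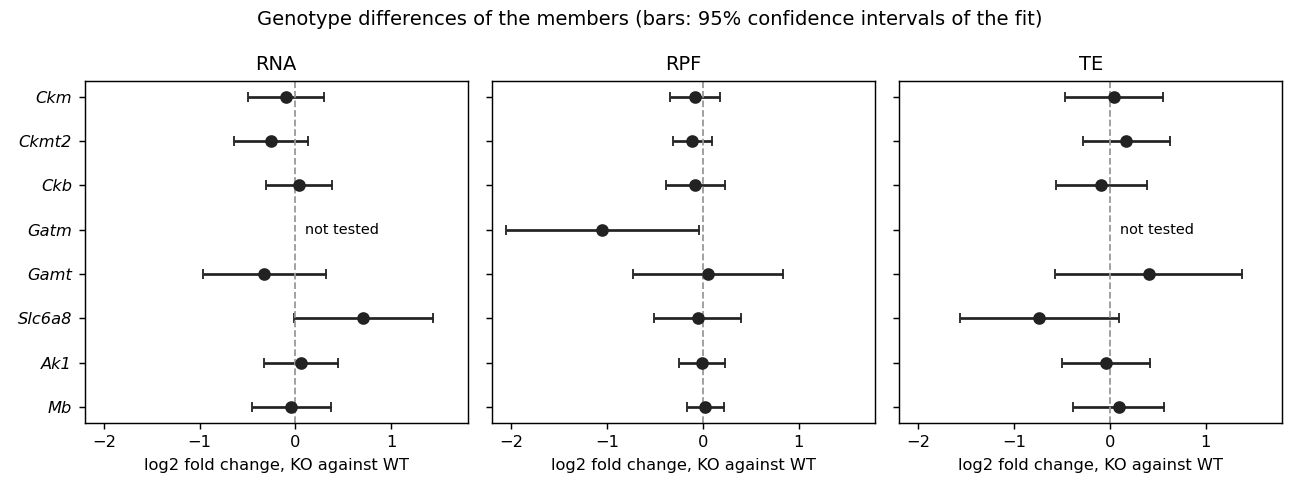
Log2 fold change, KO against WT, of each member in RNA, RPF and TE (points) with the 95% confidence interval of the fit (bars). The interval of *Mb* in RPF is the narrowest, -0.16 to 0.22, and that of *Gatm*, -2.06 to -0.042, is the one that leaves out 0.

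*Gatm*, which makes guanidinoacetate, the precursor of creatine, was read by ribosome profiling and hardly at all by RNA sequencing. The WT libraries held 0, 1 and 2 RNA counts and the KO libraries 1, 2 and 0, at or under the 3 counts taken as the detection floor in every library. Footprint counts reached 386, 96 and 74 for WT and 205, 63 and 103 for KO. Over the 3 WT libraries together, footprints were 158-fold higher than RNA in CPM of nuclear genes (95% interval 54.0 to 765), and in KO 67.3-fold (23.0 to 326). These intervals hold only the exact Poisson error of 3 RNA counts, not the spread between libraries. Without the footprint library WT 1, which gave 386 of the 556 WT footprint counts, the WT value was 76.4-fold (26.2 to 371), an alternative chosen after the data were seen. *Gatm* was among 130 nuclear genes with a mean of at least 50 RPF counts and of at most 1 RNA count. Of these 130, WT 1 was the highest WT library for 60 and KO 1 the highest KO library for 51, as for *Gatm*, and both held for 28 (21.5%). Among all 7941 nuclear genes with that many footprints both held for 1038 (13.1%).

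The genotype difference in *Gatm* footprints rested on 1 library. In CPM the WT libraries held 79.4, 25.3 and 15.7 and the KO libraries 27.6, 9.24 and 21.6, so the genotypes overlapped, and WT 1 alone stood above the rest. The log2 fold change was -1.05 (SE 0.47, interval -2.06 to -0.042, unadjusted p = 0.042, edgeR adjusted p = 0.834). Without WT 1, the library that the first RPF component set apart, it was -0.06 (SE 0.36, edgeR adjusted p = 0.986). With no filter on low counts *Gatm* was the 1 member called (-1.04, edgeR adjusted p = 0.0037), in a fit that called 60 genes. The kidney tubule, where *Gatm* is strongly expressed, was followed by 8 markers, which summed to 154, 72.7 and 44.2 CPM in RPF WT and 63.9, 33.7 and 37.5 CPM in RPF KO. In RPF 3 of the 8 had counts in WT and 5 in KO. Of the rest, *Kap*, *Slc22a6* and *Slc5a12* were at 0 in all RPF libraries, and *Slc5a2* and *Umod* were at 0 in RPF WT. The 3 with counts in all RPF libraries differed. *Slc34a1* had 588, 121 and 77 counts in WT and 199, 58 and 49 in KO, *Lrp2* 144, 144 and 115 against 253, 138 and 97, and *Cubn* 15, 11 and 17 against 15, 33 and 32. Without *Slc34a1* the sums came to 32.7, 40.8 and 27.9 CPM for WT and 37.1, 25.2 and 27.2 CPM for KO, so WT 1 stood highest through *Slc34a1* alone. In RNA the 8 markers summed to 1.29 to 2.99 CPM. The 7 liver markers, of the organ that completes creatine synthesis, summed to 32.1 to 145 CPM in RPF WT and 32.6 to 76.2 CPM in RPF KO, lowest in WT 1 and KO 1, with *Serpina1a* at 0 throughout. The part of either marker list in the *Gatm* result was not tested.

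**Figure D5:**
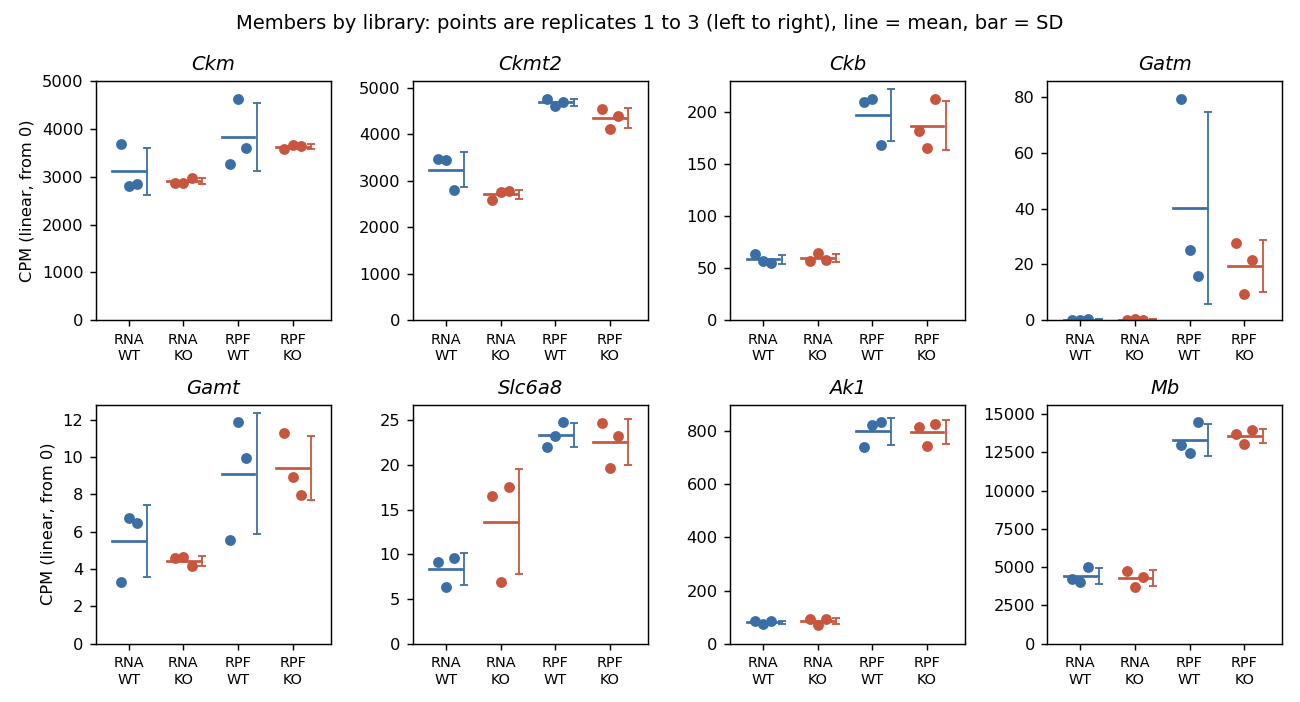
CPM of each member in the 12 libraries on linear axes from 0 (points are libraries 1 to 3 from left to right, lines are means, bars are SDs, blue WT and red KO). *Ckmt2* is the member whose KO points all lie below its WT points, *Slc6a8* RNA is high in KO 1 and KO 3, and *Gatm* footprints are high in WT 1.

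Genes around the buffer were not called either. In 9 further lists of the pathway, 0 genes passed an adjusted p of 0.05 in edgeR in RNA, RPF or TE. Of all genes tested, 0.0119%, 0.00897% and 0.0% passed, so a count of 0 does not set these lists apart. The list of ATP and ADP exchange held mitochondrial carriers of adenine nucleotides and of phosphate, and the porins. It had 7 of 10 genes tested in RNA and 9 of 10 in RPF, with median log2 fold changes of -0.0025 and 0.048. Among them the heart carrier *Slc25a4* had 9240 CPM of footprints in WT and 7669 in KO (log2 fold change -0.27, SE 0.10, unadjusted p = 0.019, edgeR adjusted p = 0.834), and the porin *Vdac3* 274 and 346 CPM (0.34, SE 0.14, unadjusted p = 0.031, edgeR adjusted p = 0.834), both named after their values were seen. Other creatine and adenylate kinases had 3 of 9 genes tested in RNA and 5 in RPF, from *Ak6* (-0.35) to *Ak3* (0.32) in RPF. *Ckmt1*, the ubiquitous mitochondrial kinase, was not tested in RNA and stood at 2.17 CPM in WT and 2.43 CPM in KO footprints.

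AMP-activated kinase, the sensor of falling ATP, had 8 of 11 genes tested in RNA (4 higher and 4 lower in KO) and all 11 in RPF (4 higher and 7 lower). Nucleotide kinases had 8 of 11 genes tested in RNA (3 higher, 5 lower) and 9 in RPF (4 higher, 5 lower), among them *Nme3* at -0.68 in RPF (edgeR adjusted p = 0.834). Adenine nucleotide turnover, which salvages and degrades AMP, had 11 genes tested in RNA (8 higher, 3 lower) and 14 in RPF (5 higher, 9 lower), from *Ampd1* (-1.03) to *Pnp* (0.71) in RPF. The balance of higher and lower genes in a list was not tested, and 49.1% of all genes tested in RNA and 50.2% in RPF were higher in KO.

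On the oxygen side, the 10 genes of heme synthesis, which supply the prosthetic group of myoglobin, had a median log2 fold change of 0.01 in RNA (9 tested) and -0.16 in RPF (10 tested, 9 lower in KO, with *Fech* at 0.08). All genes tested in RPF had a median of 0.00, with 50.2% higher in KO. Oxygen binding and sensing genes had 5 of 9 genes tested in RNA and 8 in RPF. *Egln2*, an oxygen-dependent prolyl hydroxylase, had the lowest RPF value at -1.11 (edgeR adjusted p = 0.834) on 7.29 CPM in WT and 3.41 CPM in KO. Enzymes of methyl supply to creatine synthesis had medians of -0.16 in RNA (7 tested) and 0.09 in RPF (6 tested). Regulators of muscle energy genes had medians of -0.12 in RNA (11 tested) and -0.11 in RPF (15 tested), with *Srf* at 0.43 in RNA and -0.33 in RPF.

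The 8 members together took 2.37% ± 0.23 of nuclear RNA counts in WT hearts and 2.34% ± 0.29 in KO hearts (SD, n = 3 each, exact two-sided permutation p = 1.0). In footprints they took 2.36% ± 0.15 for WT and 2.34% ± 0.11 for KO (SD, n = 3 each, exact two-sided permutation p = 0.9). The differences between genotypes, -0.030 and -0.020 percentage points, were smaller than the spread between replicates. Across libraries the members did not move as 1 block. Over the 6 libraries of RNA, Pearson's r of log2 CPM between members ran from -0.78 (*Ckm* and *Gamt*) to 0.92 (*Slc6a8* and *Ak1*). Over those of RPF it ran from -0.56 (*Gamt* and *Gatm*) to 0.83 (*Slc6a8* and *Ak1*). Over 12 libraries, with log2 CPM centred on the mean of each assay, the gene most like *Mb* among 3878 genes was *Akr1b3* (Pearson's r = 0.95), and those most like *Ckm* and *Ckmt2* were *Tacc2* (0.88) and *Klhl40* (0.89). *Ak1* was the second most alike to *Slc6a8* (0.88), after *Anxa11* (0.93). These correlations describe libraries that share depth and the splits given above.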

How the data were processed

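The deposited values are whole-number counts for each transcript name, not normalized by the authors. The submitters' processing notes list cutadapt 1.18 and Bowtie2 2.4.2. Counter, genome build, region counted, strand and multiply matching reads are not given in the sources used here. Names were matched to GENCODE M21 (GRCm38): 21425 of 21669 (98.9%) matched.

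Members and lists were chosen with earlier results of these data known. Fits used all names in edgeR 4.0.16 (R 4.3.3) with filterByExpr (minimum count 10), TMM scaling and quasi-likelihood tests. RNA and RPF were fitted on genotype over 6 libraries each, and TE as the assay-by-genotype term over 12. Whether RNA and RPF libraries of the same number came from the same heart is not given in the sources used here. The TE fit took the libraries as independent, and an alternative with a block for each genotype and number also called 0 genes. P-values were adjusted by Benjamini-Hochberg with a threshold of 0.05. SE is the absolute log2 fold change over the square root of F, and intervals are 95%. Shares and CPM were compared with two-sided exact permutation over libraries. Fits were tested on simulated counts.

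Named genes are the 8 members, *Rpl3l*, the highest and lowest fold change of each list and the gene most like each member (log2 of CPM plus 0.5, mean of at least 50 counts per assay). Others were named after their values were seen, and 1 gene is not reported here. Alternatives were median-of-ratios scaling, DESeq2 1.42.0, 2 other filters, other totals, a replicate block, scaling within assay, length scaling and leaving out each library. Same-numbered WT and KO libraries deviated together at -0.18, 0.33 and 0.39 in RNA and at 0.059, 0.030 and 0.0055 in RPF, so the numbers were not taken as pairs.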

Additional observations from a re-analysis of the deposited data

How the results depend on the processing

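No member was called under any alternative except *Gatm* in RPF with no filter (1 member called, log2 fold change -1.04, edgeR adjusted p = 0.0037, against 0.0037 to 0.9999 over its settings). Counts of all genes called moved as follows. In RNA 1 gene was called, 4 with no filter and 6 with the factor for the split of the RNA libraries, which was chosen after the data were seen. In RPF 1 was called, 5 in DESeq2, 60 with no filter and 4 with a replicate block, and with 1 replicate omitted from 1 to 2. In TE 0 were called (300 at an unadjusted p below 0.05), 1 in DESeq2 and 3 with no filter. The replicate block changed no other call of a member. In RNA it gave *Slc6a8* a log2 fold change of 0.65 (SE 0.22, edgeR unadjusted p = 0.0069, adjusted p = 0.999). The unadjusted p of *Slc6a8* RNA was also below 0.05 in DESeq2 (0.048) and in edgeR with no filter (0.0032), without WT 3 (0.035) and without KO 2 (0.0011). It was above 0.05 in the remaining settings. Alternatives gave 276 values for the members, of which 249 had the same sign and call as reported, 26 changed sign and 1 became a call. The reversals were of values near 0: *Ak1* in RNA with the split factor (-0.022), *Ak1* with no filter in RPF (0.00016) and TE (0.0049), and *Ckm* in TE with a mean of at least 50 counts (-0.0033). When a replicate was left out, the RNA log2 fold change ranged from -0.0049 to 0.17 for *Ak1*, -0.022 to 0.099 for *Ckb*, -0.17 to 0.038 for *Ckm* and -0.14 to 0.055 for *Mb*. In RPF it ranged from -0.058 to 0.041 for *Ak1*, -0.17 to 0.0041 for *Ckb*, -0.18 to 0.080 for *Ckm*, -0.20 to 0.29 for *Gamt*, -0.014 to 0.095 for *Mb* and -0.12 to 0.041 for *Slc6a8*. In TE it ranged from -0.12 to 0.036 for *Ak1*, -0.20 to 0.053 for *Ckb* and -0.20 to 0.27 for *Ckm*. The causes were not tested. For the shares of isoforms and of the members, the difference between genotypes moved by less than the pooled SD of replicates under each alternative run. The shares themselves could move more: that of *Ckb* in WT RNA was 1.85% by counts and 3.39% per transcript length.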
